A study of Homo sapiens with 2 samples.

Results

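The genes described were those of glucose uptake and glycolysis: the glucose transporters SLC2A1 (also called GLUT1) and SLC2A3 (GLUT3), the hexokinases HK1 and HK2, the mid-pathway enzymes ALDOA, GAPDH, PGK1 and ENO1, and the lactate dehydrogenases LDHA and LDHB. They were taken by symbol, and all 10 were found among the 32738 genes of the table. The cells came from 1 pooled library of blood-forming cells grown from the human induced pluripotent stem cell line iPS11, a single line. CD34+ cells enriched from aggregates had been frozen, thawed and then left to undergo the endothelial-to-hematopoietic transition (EHT) for 5 days on wells that were uncoated or coated with the Notch ligand DLL4, the adhesion protein VCAM1, or both. Nonadherent cells of 3 wells per condition were pooled, marked with 1 of 4 TotalSeq hashtag antibodies (B0252, B0253, B0254 and B0255), and sequenced together from the 3' end of transcripts. The labels do not tie a hashtag to a coating, so hashtags are given by number and no coating effect is drawn from them.

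Glucose enters cells through the transporters and is trapped by hexokinase, the first step of glycolysis. Aldolase, GAPDH, phosphoglycerate kinase and enolase then carry it towards pyruvate, which lactate dehydrogenase exchanges with lactate. Several steps are served by paralogs that differ between blood lineages: GLUT3 is known in platelets and leukocytes, GLUT1 in human red cells, HK1 as the hexokinase of red cells and platelets, and HK2 and LDHA as growth- and hypoxia-responsive forms. LDHB and LDHA are the heart and muscle subunits of the same tetrameric enzyme.

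Of 10836 barcodes, 8488 carried a single hashtag, and 7550 of these held at most 36000 unique molecular identifiers (UMIs), at most 6000 genes and at most 18% mitochondrial UMIs. They held 142110950 UMIs in all and a median of 18318.5 per cell, with 1571 to 2136 cells and 28522216 to 40416478 UMIs per hashtag. Cells were sorted in software into marker gates. A cell with 0.1% or more of its UMIs from C1QA, C1QB and C1QC was placed in the C1Q gate (498 cells, macrophage complement genes), with 0.05% or more from ELANE in the ELANE gate (84 cells, neutrophil elastase), with 0.1% or more from globin genes in the globin gate (378 cells), and with 0.1% or more from PF4 and PPBP, platelet chemokines, in the PF4/PPBP gate. Of the remainder, cells with 3 or more SPINK2 UMIs formed the SPINK2 gate (1173 cells, a progenitor marker), and those with 2 or more UMIs of both CD34 and GATA2 formed the CD34/GATA2 gate (1437 cells), the reference for every ratio below. Of the others, 77 cells were past more than 1 lineage threshold and 3897 past none of these rules. All but 6 of the 80 cells past the PF4/PPBP threshold were past a second one, so these 80 are given together, whatever their globin content, and overlap no other gate.

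Markers that the gates did not use were compared between gates. Summed macrophage markers reached 2189 CPM (UMIs of a gene per 1e6 UMIs) in the C1Q gate against 762.5 to 1674 elsewhere, neutrophil markers 42400 in the ELANE gate, and megakaryocyte markers 1970 in the PF4/PPBP cells against 226.3 in the CD34/GATA2 gate. Erythroid markers stood at 809.0 in the globin gate, but megakaryocyte markers stood at 892.8 there, so that gate was mixed. Summed stromal markers stood at 86.6 in the globin gate and 10.6 to 43.4 in the other gates, and endothelial markers at 172 in PF4/PPBP cells, 96.9 in the globin gate and 1.89 to 41.1 elsewhere. Eosinophil markers stood at 293.2 in the CD34/GATA2 gate, 730.8 in the ELANE gate and 49.3 to 242.8 elsewhere. Mast cell markers stood at 251.1 in the CD34/GATA2 gate, 436.2 in the globin gate, 346.5 in PF4/PPBP cells and 4.72 to 23.3 elsewhere. The part of these other cell types in the results was not tested. The stem and progenitor markers did not set the progenitor gates apart: one list summed to 277.1 in the CD34/GATA2 gate and 312.6 in the globin gate, and the other to 789.8 in the SPINK2 gate and 1385 in the C1Q gate. The gates are named by their genes and not by cell types. Cells close to a threshold were common in the progenitor gates, with 290 cells just inside and 451 just outside the SPINK2 cut, and fewer in the globin gate, with 54 inside and 53 outside within 1.5 times of the cut. A gate's median depth ran from 11469 UMIs per cell in the ELANE gate and 11964 in the C1Q gate to 21449 in the SPINK2 gate.

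The starts of these genes were read from RefSeq (GRCh38.p14), which gave windows of the 250 bases before the start for 9 of the 10 genes, 19 windows in all and 7 of them for HK1. SLC2A3 had no entry. They were searched on both strands for CACGTG, the E-box bound by MYC and related factors, and for AGATAA, letters read by GATA factors. An E-box lay in 4 of the 19 windows, each of another gene, and the GATA motif in 1 of the 19, while 6.34% and 9.17% of 35116 windows of that length held them. Windows of LDHA, GAPDH and HK1 that hold these motifs are shown as examples, and those of ALDOA and HK2 are not shown. Capitals mark the motif, and all windows shown are on the plus strand.
LDHA, chr11:18394313-18394562: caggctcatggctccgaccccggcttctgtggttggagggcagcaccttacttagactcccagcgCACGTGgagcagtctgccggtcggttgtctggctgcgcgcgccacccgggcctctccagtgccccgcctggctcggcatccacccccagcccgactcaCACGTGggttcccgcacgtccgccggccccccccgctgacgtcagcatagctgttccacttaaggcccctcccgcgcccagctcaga
GAPDH, chr12:6535014-6535263: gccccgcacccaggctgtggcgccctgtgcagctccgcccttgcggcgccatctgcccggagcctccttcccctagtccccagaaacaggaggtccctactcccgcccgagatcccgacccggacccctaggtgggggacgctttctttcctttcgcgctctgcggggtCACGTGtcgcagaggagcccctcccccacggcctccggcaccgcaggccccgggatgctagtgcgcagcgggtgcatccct
HK1, chr10:69334364-69334613: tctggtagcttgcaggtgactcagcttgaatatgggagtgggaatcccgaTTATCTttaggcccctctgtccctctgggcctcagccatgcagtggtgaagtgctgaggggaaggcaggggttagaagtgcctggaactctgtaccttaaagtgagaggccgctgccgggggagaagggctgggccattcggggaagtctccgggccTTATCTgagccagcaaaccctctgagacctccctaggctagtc
The LDHA window held E-boxes starting 185 and 87 bases before the start, and 0.535% of windows held 2 or more. The GAPDH window held 1, starting 81 bases before it. In the HK1 window, the most downstream of its 7, its reverse complement TTATCT began 200 and 43 bases before the start, and 0.803% of windows held 2 or more. ALDOA and HK2 each had a window with an E-box as well, HK2 with 2 copies. A match is a description of letters and not a bound site. The windows were picked because they hold a motif, so these shares do not give the chance of finding one among 19. Counts from the 3' end do not tell which of the 7 HK1 starts was in use.

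Levels below are in CPM over the summed UMIs of a group of cells, with a 95% exact Poisson interval in parentheses. A transcript is counted once at its 3' end, so levels were not divided by gene length. With 1 library and no replicate wells kept apart, no test between groups of cells was made: intervals cover counting error only and not the spread between wells. In hg19 (GENCODE lift of the annotation), SLC2A1 lies at chr1:43391024-43424564 (minus strand), SLC2A3 at chr12:8071826-8171603 (minus), HK1 at chr10:71029740-71161640 (plus), HK2 at chr2:75061254-75120486 (plus), ALDOA at chr16:30075485-30081778 (plus), GAPDH at chr12:6643678-6647540 (plus), PGK1 at chrX:77166236-77384792 (plus), ENO1 at chr1:8921059-8939249 (minus), LDHA at chr11:18416107-18429972 (plus) and LDHB at chr12:21788276-21910791 (minus). All 10 genes passed a level of 10 CPM over the pool, as did 7832 genes in all, and changes of 1.5-fold or more are counted beside the share of those 7832 genes that passed the same fold.

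The 6 mid-pathway and lactate genes were abundant and the transporters and hexokinases scarce. Over all cells GAPDH, which oxidises glyceraldehyde-3-phosphate, stood at 4112 CPM, followed by ALDOA (aldolase) at 1146, LDHB at 1052, ENO1 (enolase) at 1027, LDHA at 508.9 and PGK1 (phosphoglycerate kinase) at 358.4. HK1 stood at 46.0, SLC2A3 at 20.1, SLC2A1 at 16.7 and HK2 at 13.2. The order changed between gates within the scarce genes and within the abundant ones, as the following paragraphs give.

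**Figure D1:**
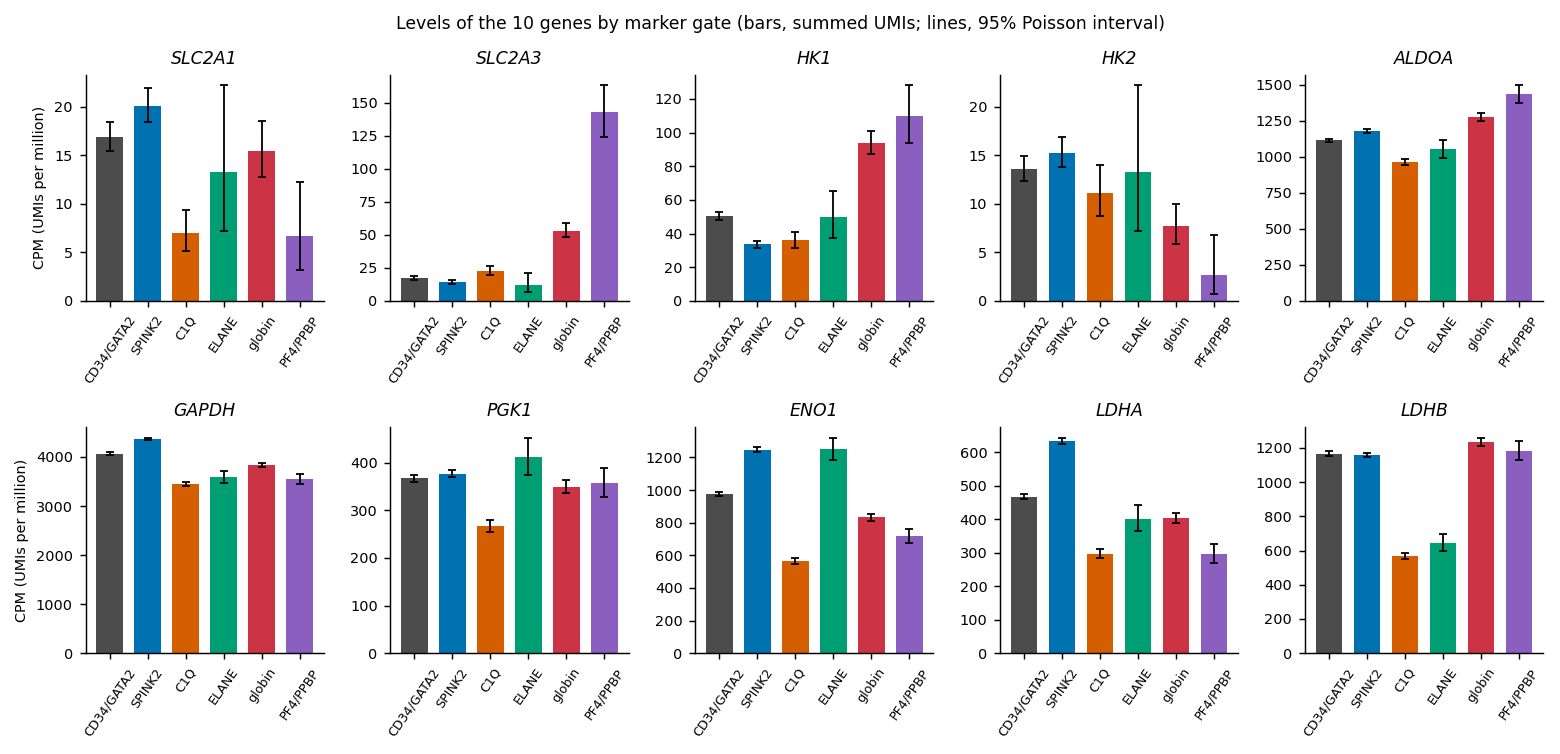
Level of each of the 10 genes in CPM (vertical, linear, its own scale for each gene) by marker gate (horizontal), as bars with 95% exact Poisson intervals. SLC2A3 is highest in cells past the PF4/PPBP threshold (143 CPM) and in the globin gate (53.2 CPM), where HK2 is lowest (2.67 and 7.71 CPM).

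SLC2A3, the high-affinity glucose transporter GLUT3, varied most. It stood at 17.4 CPM (15.9 to 18.9) in the CD34/GATA2 gate, 14.6 (13.1 to 16.1) in the SPINK2 gate, 12.3 (6.54 to 21.0) in the ELANE gate, 22.8 (19.3 to 26.8) in the C1Q gate, 53.2 (48.2 to 58.6) in the globin gate and 143 (124 to 163) in PF4/PPBP cells. The globin gate and the PF4/PPBP cells were thus clear of each other and of the rest, while the ELANE interval overlapped those of both progenitor gates. Against the CD34/GATA2 gate the ratio was 8.21 (6.97 to 9.63) in PF4/PPBP cells, 3.06 (2.69 to 3.49) in the globin gate, 1.31 (1.09 to 1.58) in the C1Q gate and 0.838 in the SPINK2 gate. The SPINK2 direction held in 2 of 4 hashtags, at 15.3 against 20.1 CPM in B0252 and 10.6 against 20.3 in B0253, but 16.2 against 14.6 in B0254 and 14.8 against 11.5 in B0255. Its neighbour paralog SLC2A14, which shares most of its sequence, held 15 UMIs against 2858 for SLC2A3, and reads that the counting could not place between them cannot be told apart. Scrublet marked 63 of the 7550 cells kept as doublets and none of the 80 PF4/PPBP cells. With so few cells marked, finding none among 80 does not tell whether they hold doublets.

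SLC2A1, the widely expressed transporter GLUT1, followed a different order. It stood at 20.1 CPM (18.4 to 21.9) in the SPINK2 gate, 16.9 (15.5 to 18.4) in the CD34/GATA2 gate, 15.4 (12.8 to 18.5) in the globin gate, 13.2 (7.23 to 22.2) in the ELANE gate, 7.0 (5.12 to 9.33) in the C1Q gate and 6.66 (3.20 to 12.3) in PF4/PPBP cells. Only the C1Q gate and the PF4/PPBP cells lay clear below the CD34/GATA2 gate, with ratios of 0.415 (0.300 to 0.562) and 0.395 (0.188 to 0.733), and they did not differ from each other beyond their intervals. The globin gate as a whole did not depart from the CD34/GATA2 gate (0.915, 0.743 to 1.12).

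As a share of the UMIs of both transporters, SLC2A3 made up 50.8% (47.7 to 53.8, exact Clopper-Pearson interval) in the CD34/GATA2 gate and 42.1% (38.8 to 45.4) in the SPINK2 gate. The share was 76.5% (70.0 to 82.3) in the C1Q gate, 77.5% (73.7 to 81.0) in the globin gate and 95.5% (91.9 to 97.8) in PF4/PPBP cells. The C1Q and globin gates reached a like share from different sides. In the C1Q gate SLC2A1 was low and SLC2A3 at 1.31 times the reference, and in the globin gate SLC2A1 was near the reference and SLC2A3 high. Newcombe intervals for the difference from the CD34/GATA2 gate were 18.7 to 32.0 percentage points for the C1Q gate, 22.0 to 31.3 for the globin gate, 40.1 to 48.4 for PF4/PPBP cells and -13.1 to -4.26 for the SPINK2 gate. The SPINK2 difference of -8.70 came to -4.88 without hashtag B0253, and the shares were 33.1 against 55.6% in B0253 and 46.1 against 46.2% in B0254. The ELANE share of 48.1% (28.7 to 68.1) was too thinly counted to be told from any progenitor gate. By hashtag, B0252 to B0255, the globin-gate share was 84.2, 82.7, 60 and 54.8%, against 53.5, 55.6, 46.2 and 41.0% in CD34/GATA2 cells. The globin share was thus higher in each hashtag, but by less in B0254 and B0255, which the pooled interval does not show. At a mitochondrial limit of 10%, which left 18 globin-gate and 34 CD34/GATA2 cells, the globin difference was 6.66 points.

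**Figure D2:**
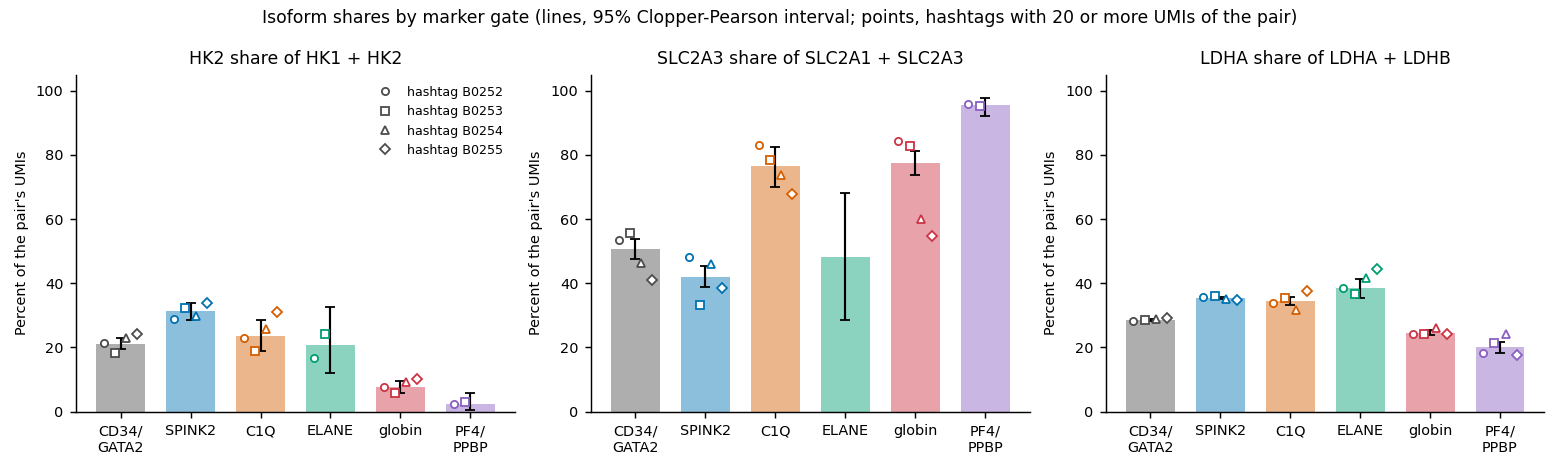
Share (percent, vertical) of each paralog pair's UMIs held by SLC2A3, HK2 and LDHA by marker gate (horizontal), with exact 95% Clopper-Pearson intervals and open points for hashtags with 20 or more UMIs of the pair. SLC2A3 goes from 50.8% in the CD34/GATA2 gate to 95.5% in PF4/PPBP cells, and HK2 from 21.2% to 2.37%.

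HK1, the hexokinase that dominates in mature blood cells and holds to the mitochondrial surface, was the more abundant hexokinase in every gate. It stood at 50.3 CPM (47.9 to 52.9) in the CD34/GATA2 gate, 33.5 (31.3 to 35.8) in the SPINK2 gate, 36.1 (31.6 to 41.0) in the C1Q gate, 50.0 (37.5 to 65.5) in the ELANE gate, 93.9 (87.1 to 101.0) in the globin gate and 110.0 (93.8 to 128) in PF4/PPBP cells. The globin gate and PF4/PPBP cells overlapped each other and lay above the rest. Their ratios to the CD34/GATA2 gate were 1.87 (1.71 to 2.04) and 2.19 (1.85 to 2.57). The SPINK2 ratio was 0.666 (0.612 to 0.724), on the edge of the 1.5-fold rule, and HK1 was lower in SPINK2 than in CD34/GATA2 cells in 4 of 4 hashtags.

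HK2, the inducible hexokinase, moved the other way in the same cells. It stood at 15.2 CPM (13.8 to 16.8) in the SPINK2 gate, 13.6 (12.3 to 14.9) in the CD34/GATA2 gate, 13.2 (7.23 to 22.2) in the ELANE gate, 11.1 (8.70 to 14.0) in the C1Q gate, 7.71 (5.87 to 9.95) in the globin gate and 2.67 (0.726 to 6.83) in PF4/PPBP cells, the last resting on 4 UMIs. The progenitor, ELANE and C1Q gates could not be put in order. The globin ratio was 0.569 (0.426 to 0.748) and the PF4/PPBP ratio 0.197 (0.0533 to 0.507).

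HK2 therefore held 21.2% (19.4 to 23.1) of hexokinase UMIs in the CD34/GATA2 gate, 31.3% (28.7 to 33.9) in the SPINK2 gate, 7.59% (5.83 to 9.69) in the globin gate and 2.37% (0.649 to 5.95) in PF4/PPBP cells. The difference from the CD34/GATA2 gate was 10.0 percentage points (6.90 to 13.2) in the SPINK2 gate, -13.6 (-16.1 to -10.9) in the globin gate and -18.9 (-21.2 to -14.9) in PF4/PPBP cells. The shift in the SPINK2 gate came with less HK1 rather than with HK2 clear of the reference. The C1Q share of 23.6% differed by 2.32 points (-2.44 to 7.65), an interval that holds both directions, and came to -10.02 at a mitochondrial limit of 10%. The HK2 share was above that of CD34/GATA2 and globin cells in SPINK2 cells of 4 of 4 hashtags, at 29.0, 32.2, 29.9 and 33.9%, against 21.4, 18.3, 22.8 and 24.1% in CD34/GATA2 cells and 7.66, 5.86, 9.14 and 10.2% in globin cells.

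Within the SPINK2 gate, the 200 cells that also met the CD34 and GATA2 rule lay between the gates for HK1, with 39.9 CPM and an HK2 share of 26.9%, against 32.1 CPM and 32.4% in the other 973. Their SLC2A3 level, 8.67 CPM (6.25 to 11.7), was below that of the other SPINK2 cells, 15.9 (14.3 to 17.8), and the SLC2A3 share was 31.3% against 43.96%. SLC2A3 was thus lower where CD34 and GATA2 were counted together with SPINK2.

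Among the mid-pathway enzymes, ENO1 set the C1Q gate apart. ENO1, which forms phosphoenolpyruvate, stood at 977 CPM (966 to 988) in the CD34/GATA2 gate, 1247 (1233 to 1261) in the SPINK2 gate, 1252 (1185 to 1321) in the ELANE gate, 562 (544 to 581) in the C1Q gate, 833 (813 to 854) in the globin gate and 718 (676 to 762) in PF4/PPBP cells. The SPINK2 and ELANE gates overlapped at the top and the C1Q gate lay lowest, with a ratio of 0.576 (0.556 to 0.596). ALDOA, which splits fructose-1,6-bisphosphate, ran from 963 CPM (939 to 987) in the C1Q gate through 1053 (992 to 1116) in the ELANE gate, 1113 (1101 to 1125) in the CD34/GATA2 gate and 1177 (1164 to 1191) in the SPINK2 gate to 1274 (1249 to 1300) in the globin gate and 1433 (1374 to 1495) in PF4/PPBP cells.

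GAPDH kept within 0.848 to 1.07 times the CD34/GATA2 level of 4069 CPM (4047 to 4092) in these gates, lowest in the C1Q gate at 3450 (3405 to 3495), then 3549 (3454 to 3645) in PF4/PPBP cells, 3590 (3476 to 3706) in the ELANE gate and 3834 (3790 to 3878) in the globin gate, and highest in the SPINK2 gate at 4369 (4344 to 4395). PGK1, the first step that yields ATP, stood at 367 CPM (360 to 373) in the CD34/GATA2 gate, 376 (369 to 384) in the SPINK2 gate, 349 (336 to 362) in the globin gate, 358 (328 to 390) in PF4/PPBP cells and 412 (374 to 452) in the ELANE gate, and at 267 (254.9 to 280.1) in the C1Q gate. In CPM these 4 mid-pathway genes were thus lowest in C1Q cells, and only ENO1 passed 1.5-fold. For GAPDH the C1Q interval overlapped those of PF4/PPBP and ELANE cells.

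LDHB exceeded LDHA in every gate. LDHB stood at 1167 CPM (1155 to 1179) in the CD34/GATA2 gate, 1158 (1145 to 1172) in the SPINK2 gate, 1235 (1210 to 1260) in the globin gate and 1184 (1129 to 1240) in PF4/PPBP cells, but at 568 (550 to 586) in the C1Q gate and 644 (597 to 694) in the ELANE gate. The macrophage-gene and neutrophil-gene gates were thus the low ones for LDHB, with ratios of 0.486 (0.470 to 0.503) and 0.552 (0.511 to 0.595). LDHA stood at 634 CPM (625 to 644) in the SPINK2 gate, 467 (460 to 475) in the CD34/GATA2 gate, 403 (389 to 417) in the globin gate, 401 (364 to 441) in the ELANE gate, 297 (284 to 311) in the C1Q gate and 297 (270 to 325) in PF4/PPBP cells.

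LDHA accordingly held 28.6% (28.2 to 29.0) of lactate dehydrogenase UMIs in the CD34/GATA2 gate, 35.4% (34.9 to 35.8) in the SPINK2 gate, 34.4% (33.2 to 35.6) in the C1Q gate and 38.4% (35.5 to 41.3) in the ELANE gate. It held 24.6% (23.8 to 25.4) in the globin gate and 20.04% (18.4 to 21.8) in PF4/PPBP cells. The higher share in the SPINK2 gate came with more LDHA, 1.36 times the reference, and that in the C1Q and ELANE gates with less LDHB.

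Counted by the 1.5-fold rule, none of the 10 genes was higher and 1 (HK1) lower in the SPINK2 gate, where 4.53% and 5.39% of all genes passed. In the C1Q gate none was higher and 4 were lower (LDHA, LDHB, ENO1 and SLC2A1), against 14.9% and 26.2%. In the ELANE gate none was higher and 1 lower (LDHB), against 19.3% and 20%. The globin gate had 2 higher (HK1 and SLC2A3) and 1 lower (HK2), against 5.5% and 9.38%, and the PF4/PPBP cells had the same 2 higher and 3 lower (HK2, SLC2A1 and LDHA), against 11.0% and 32.5%. The PF4/PPBP count of lower genes, 3 of 10, is close to its background. The 6 cells past the PF4/PPBP threshold alone had 2 higher and 2 lower, against 18.5% and 34.5%. Cells outside the gates had none past the fold, against 6.91% and 3.84%.

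The median gene moved as well. The median ratio over the 7832 genes was 0.880 in the C1Q gate (-0.18 on the log2 scale), 0.919 in the globin gate (-0.12) and 0.809 in PF4/PPBP cells (-0.31). The median of the 10 genes was -0.47, -0.08 and -0.12 in those groups, and 0.09 in the SPINK2 gate against 0.07 for all genes. Relative to the median gene, LDHA in the C1Q gate came to 0.723 and in PF4/PPBP cells to 0.785, no longer past 1.5-fold, while LDHB (0.553), ENO1 (0.654) and SLC2A1 (0.471) in the C1Q gate stayed past it. SLC2A3 came to 3.33 in the globin gate and 10.2 in PF4/PPBP cells, HK1 to 2.03 and 2.70, and ALDOA in PF4/PPBP cells to 1.59, now past it. ALDOA and GAPDH were no longer lowest in the C1Q gate, at 0.983 and 0.963 there against 0.970 and 0.905 in the ELANE gate. Directions that turned lay near 1: GAPDH went from 0.942 to 1.02 in the globin gate and from 0.872 to 1.08 in PF4/PPBP cells, PGK1 from 0.952 to 1.04 and from 0.977 to 1.21 there and from 1.03 to 0.981 in the SPINK2 gate, and HK1 from 0.994 to 1.02 in the ELANE gate.

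Together the 10 genes took 0.826% of UMIs in the CD34/GATA2 gate, 0.905% in the SPINK2 gate, 0.744% in the ELANE gate, 0.810% in the globin gate, 0.780% in PF4/PPBP cells and 0.618% in the C1Q gate. Between cells, the 5th, 50th and 95th percentiles were 0.614, 0.819 and 1.03% in the CD34/GATA2 gate, 0.670, 0.895 and 1.11% in the SPINK2 gate, and 0.390, 0.590 and 0.855% in the C1Q gate. Single cells of the CD34/GATA2 and SPINK2 gates thus overlapped widely. C1Q cells overlapped them only in part, as the C1Q median lay below the 5th percentile of both. The C1Q 95th percentile lay above the CD34/GATA2 median.

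**Figure D3:**
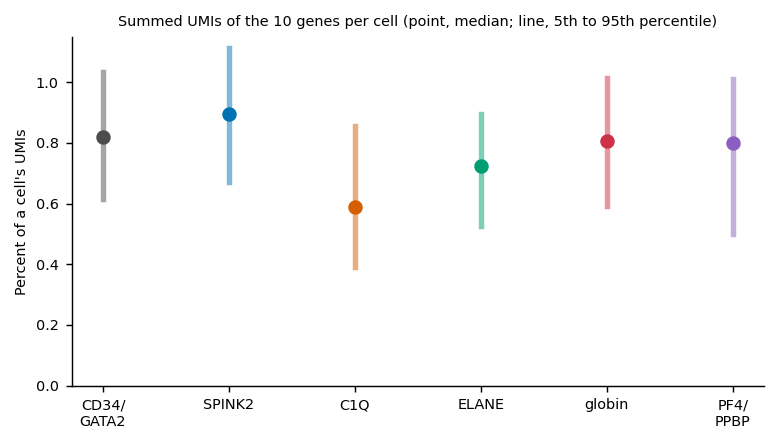
Percent of a cell's UMIs from the 10 genes (vertical) by marker gate (horizontal), as the median (point) and the 5th to 95th percentile over cells (line). The C1Q gate sits lowest with a median of 0.590%, and the SPINK2 gate highest with 0.895%.

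The globin gate was then divided by globin content, since it mixed erythroid and megakaryocyte markers. SLC2A3 stood at 53.6 CPM (46.5 to 61.4) in the 192 cells with 0.1 to 0.5% globin UMIs, 68.3 (58.6 to 79.2) in the 129 cells with 0.5 to 2%, and 21.4 (14.1 to 31.1) in the 57 cells with 2% or more. SLC2A1 stood at 12.9 (9.52 to 17.0), 11.7 (7.86 to 16.6) and 30.8 (21.9 to 42.2) in the same bins. The SLC2A3 share was 80.6% and 85.4% in the lower bins and 40.9% (29.0 to 53.7) in the cells richest in globin. That bin also differed in hashtags, with 10, 14, 25 and 8 cells of B0252 to B0255, and its share was 70.6% (44.04 to 89.7), 50% (24.6 to 75.4), 21.1% (6.05 to 45.6) and 21.4% (4.66 to 50.8) in them, so SLC2A3 did not fall below SLC2A1 in B0252. HK1 did not follow, at 87.7, 103 and 93.3 CPM, and the HK2 share stayed low at 9.73, 5.67 and 5.60%.

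**Figure D4:**
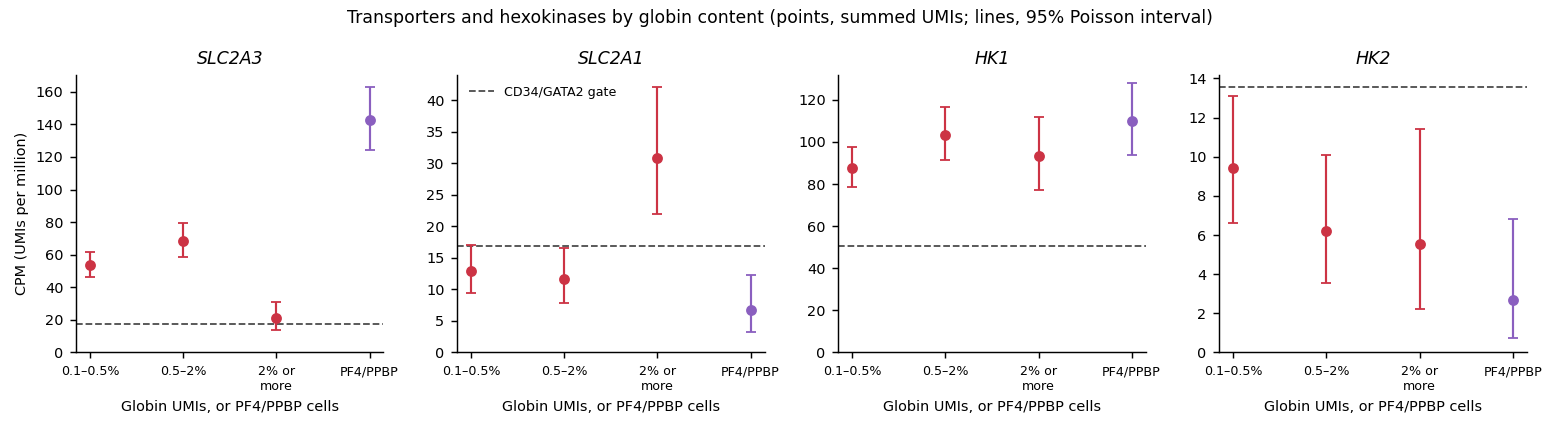
Levels in CPM (vertical) of the transporters and hexokinases in cells of the globin gate binned by their percent of globin UMIs (horizontal), with PF4/PPBP cells as the last point, 95% exact Poisson intervals and the CD34/GATA2 level as a dashed line. SLC2A3 drops to 21.4 CPM and SLC2A1 reaches 30.8 CPM in the 57 cells with 2% or more, while HK1 stays between 87.7 and 103 CPM.

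A PF4 or PPBP UMI was found in 30.2% of globin-gate cells, against 6.54% of CD34/GATA2 cells, 5.20% of SPINK2 cells, 5.82% of C1Q cells and 3.57% of ELANE cells, with median depths of 19173.5, 20856, 21449, 11964 and 11469 UMIs in that order. The last 4 shares give the level at which free RNA may be counted. SLC2A3 stood at 82.7 CPM (71.6 to 94.9) in the 114 globin-gate cells with such a UMI and at 39.5 (34.3 to 45.3) in the 264 without, which was still above the 17.4 of the CD34/GATA2 gate. The PF4/PPBP cells themselves held 4309 CPM of PPBP but 44.7 of PF4, with ITGA2B (platelet integrin) at 522 and TUBB1 (platelet tubulin) at 301. They also held 13940 CPM of summed globins. KLF1, an erythroid transcription factor, stood at 9.33, against 22.1 in the CD34/GATA2 gate. The 6 erythroid markers together went the other way, at 277.9 against 163.5, and stood at 809.0 in the globin gate.

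Between hashtags over all cells, SLC2A3 alone passed 1.5-fold, against 5.45% of all genes by the same rule. It stood at 24, 23.6, 16.9 and 13.8 CPM in hashtags B0252, B0253, B0254 and B0255, a span of 1.74. HK1 stood at 48.5, 51.0, 42.9 and 39.4, a span of 1.30, and the other 8 spanned 1.02 to 1.16. The SLC2A3 share of transporter UMIs was 60.3, 60.2, 48.4 and 43.4%, and the HK2 share 22.0, 19.9, 23.0 and 25.7%. The hashtags also differed in makeup: the globin gate held 121, 133, 80 and 44 cells of the 4 hashtags, and the PF4/PPBP cells numbered 33, 35, 4 and 8. An equal mix was then taken of the CD34/GATA2, SPINK2, C1Q, ELANE and globin gates. It left out the PF4/PPBP cells and all cells in none of these gates. In this mix the SLC2A3 levels were 25.7, 27.4, 23.5 and 15.5, a span of 1.77, and HK2 at 11.2, 12.2, 9.63 and 17.8 passed as well. The HK2 values of B0254 and B0255 rested on 0 UMIs in 4 ELANE cells and 2 UMIs in 3, and without the ELANE gate they were 11.7, 10.9, 12.04 and 13.3, a span of 1.22, and those of SLC2A3 30.3, 29.9, 20.9 and 19.4, a span of 1.56.

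Within gates, SLC2A3 was again higher in B0252 and B0253 in CD34/GATA2 cells, at 20.1 (17.3 to 23.1), 20.3 (17.4 to 23.6), 14.6 (12.1 to 17.6) and 11.5 CPM (8.73 to 14.9), the only 1 of the 10 genes past 1.5-fold there, against 6.79% of all genes. Both B0252 and B0253 were thus above B0255 beyond their intervals, while B0254 overlapped B0252, B0253 and B0255. The SPINK2 gate did not show this, at 15.3, 10.6, 16.2 and 14.8 CPM, again the only 1 past 1.5-fold, against 7.93%. In the C1Q gate SLC2A3 was level, at 24.02, 21.0, 25.0 and 20.2, and HK1 and SLC2A1 passed the fold where 39.7% of all genes did.

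In the globin gate SLC2A3 stood at 61.9 (52.5 to 72.4), 67.8 (58.3 to 78.5), 27.6 (20.4 to 36.6) and 31.2 CPM (19.8 to 46.8) in hashtags B0252 to B0255. It was 1 of 3 genes (with HK2 and SLC2A1) past 1.5-fold between the extreme hashtags, against 40.8% of all genes. It was the only 1 of the 10 with both B0252 and B0253 at least 1.5-fold above both B0254 and B0255, a pattern met by 1.89% of all genes. That pattern is the one SLC2A3 shows and was not among the planned comparisons, so its share is a description and not a test. Of the 44 cells of B0255 in this gate 9 were stromal by collagen UMIs, against 0, 1 and 0 in the other hashtags, and without them SLC2A3 stood at 61.9, 67.9, 27.6 and 32.7. HK1 stood at 91.4, 96.3, 103 and 71.9 there, without that split. The SLC2A3 share was 84.2, 82.7, 60 and 54.8%.

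Lineage markers of the globin gate also split by hashtag, platelet genes in the direction of SLC2A3 and erythroid genes in the opposite one. PPBP stood at 106, 118, 32.2 and 35.3 CPM, TUBB1 at 99.4, 106, 66.7 and 50.2, KLF1 at 51.9, 48.4, 182 and 148, and the summed globins at 7775, 11290, 23250 and 16960 in hashtags B0252 to B0255. Their part in the SLC2A3 split was not tested. In globin-gate cells with no PF4 or PPBP UMI the SLC2A3 levels were 50.9, 53.9, 18.9 and 21.2. In the same cells the markers still split, with TUBB1 at 66.2, 62.4, 31.4 and 24.5, ITGA2B at 292, 294, 233 and 160, and KLF1 at 74.2, 78.6, 206 and 171. In the 57 cells with 2% or more globin the levels were 52.7, 28.2, 6.87 and 17.5, resting on 12, 8, 4 and 3 UMIs. In PF4/PPBP cells they were 144, 153, 71.6 and 140.

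**Figure D5:**
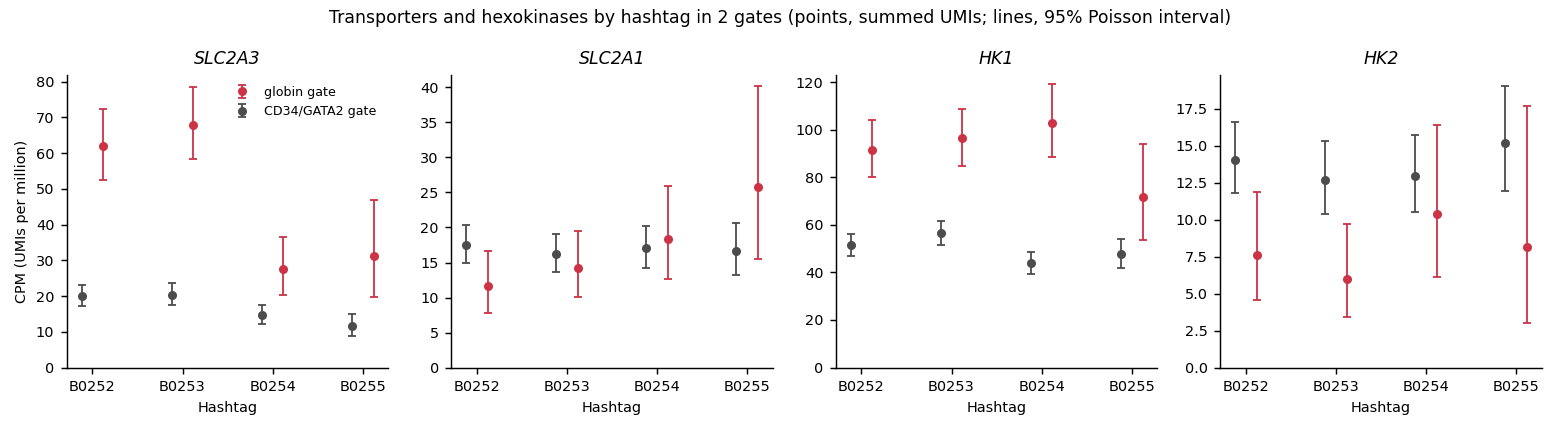
Levels in CPM (vertical) of the transporters and hexokinases by hashtag (horizontal) in the globin gate (red) and the CD34/GATA2 gate (grey), with 95% exact Poisson intervals. In the globin gate SLC2A3 sits at 61.9 and 67.8 CPM in hashtags B0252 and B0253 and at 27.6 and 31.2 in B0254 and B0255.

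Depth was evened by thinning each cell to 5000 UMIs, which left out 68 shallower cells. An SLC2A3 UMI was then found in 48.1% of PF4/PPBP cells, 23.9% of globin, 10.1% of C1Q, 8.63% of CD34/GATA2 and 7.67% of SPINK2 cells, in the order of the levels. The ELANE gate, lowest in level, did not follow that order, at 8.54% (7 of 82 cells, 3.50 to 16.8). Without thinning the shares were 80.0% in PF4/PPBP, 56.4% in globin and 28.3% in CD34/GATA2 cells. HK1 was found in 36.2% of globin, 32.5% of PF4/PPBP, 23.0% of CD34/GATA2 and 14.8% of SPINK2 cells, and HK2 in 3.75, 2.60, 7.52 and 7.25% of them. A GAPDH UMI was found in 100% of the cells of every gate. Of 7482 thinned cells, 104 (1.39%) held both hexokinases and 57 (0.762%) both transporters, so at this depth the choice of isoform was read from groups of cells and not from single cells.

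Most of the abundant genes spread between cells beyond counting, PGK1 only slightly. The variance over the mean across all thinned cells, differences between gates included, was 1.75 for ENO1, 1.67 for GAPDH and 1.39 for LDHA. It was 1.34 for LDHB, 1.28 for ALDOA and 1.07 for PGK1, where 1 is the value of counting alone. Within gates the ENO1 value was lower, at 1.54 in the CD34/GATA2 gate and 1.24 in the globin gate. Across all thinned cells the ratio was 1.14 for SLC2A3 and 0.999 for HK2. Their means of 0.102 and 0.0679 UMIs per thinned cell leave the ratio little room to rise. In the 77 thinned PF4/PPBP cells, where the SLC2A3 mean was 0.727, its ratio was 1.51, against 1.03 in the globin gate. The Poisson interval of SLC2A3 in PF4/PPBP cells does not cover this spread between cells. Among the 6 abundant genes, the rank correlation between cells ran from 0.0328 to 0.278 over 15 pairs, highest for LDHA with ENO1. Within gates that pair stood at 0.224 in CD34/GATA2, 0.260 in C1Q, 0.136 in globin, 0.0985 in SPINK2 and -0.0213 in ELANE cells. Counting error at this depth enters these values, so they were not read as the strength of a relation.

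Across 18 groups of at least 20 cells, each 1 gate in 1 hashtag of the same library, the gene most like SLC2A3 in log2(CPM + 1) was WDR1 (an actin-severing cofactor) with Pearson's r of 0.945, then LIMS1 (0.933) and PLEK, the platelet protein pleckstrin (0.920). HK1 was most like ABHD2 (0.947), MGAT4B (0.945) and FLI1, a megakaryocyte and endothelial transcription factor (0.939). HK2 was most like CEP250 (0.909), TMEM138 (0.865) and CCP110 (0.864), and SLC2A1 like TOE1 (0.964), MAD2L1 (0.927) and SURF6 (0.924). LDHA was most like LAGE3 (0.979), PHB (0.972) and PSMG3 (0.970), LDHB like SF3B14 (0.987), CCDC85B (0.981) and COA4 (0.980), and ENO1 like NOP58 (0.976), NAA15 (0.968) and YARS (0.966). PGK1 was most like DHX33 (0.945), ABCE1 (0.937) and PDHA1 (0.932), ALDOA like POLR2K (0.924) and CMC2 (0.911), and GAPDH like MRP63 (0.969), CCDC124 (0.961) and DRG1 (0.960). Between the 10 genes, r was 0.907 for PGK1 with ENO1, 0.906 for LDHA with GAPDH, 0.644 for HK1 with SLC2A3, -0.694 for HK2 with SLC2A3 and -0.595 for HK1 with HK2. These values describe 18 groups that share gates and a library, and are given without a test. SLC2A3 spanned 3.04 on the log2 scale over the groups and GAPDH 0.44. The PF4/PPBP cells past a second threshold were not among the groups, and the low end of SLC2A3 was the ELANE gate of B0252, with 4 UMIs.

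Of 76 other genes of glucose metabolism and the hypoxia response, 75 were found and 32 passed 10 CPM over the pool. By the 1.5-fold rule, 1 was higher and 2 lower in the SPINK2 gate, 5 and 7 in the C1Q gate, 9 and 9 in the ELANE gate, 1 and 2 in the globin gate, and 5 and 8 in PF4/PPBP cells. In the C1Q gate the lactate carrier SLC16A1 stood at 15.4 CPM against 50.1 in the CD34/GATA2 gate, and the phosphofructokinases PFKP at 24.9 against 58.4 and PFKM at 8.98 against 20.5. Other genes of these families stood higher in the C1Q gate: the lactate exporter SLC16A3 stood at 132 against 72.3 and the phosphofructokinase PFKL at 94.0 against 73.5. SLC16A3 and PFKL are outside the rule for named genes and were chosen after their values were seen. The stress gene DDIT4 also stood higher in the C1Q gate, at 17.8 against 6.31. In the ELANE gate GPI, the isomerase that follows hexokinase, stood at 270.0 against 104.9 and PFKM at 2.83 against 20.5. This PFKM value rests on few UMIs, with a ratio of 0.14 (0.028 to 0.41). The hypoxia-responsive VEGFA and ERO1L stood at 61.4 against 14.2 and 37.8 against 10.9 in the ELANE gate. BNIP3L, a mitophagy receptor, stood at 32.7 in PF4/PPBP cells against 95.2, SLC16A1 at 23.99 against 50.1, and ERO1L at 3.33 against 10.9. That ERO1L value also rests on few UMIs. In the globin gate ERO1L stood at 6.67 and DDIT4 at 4.05. In the SPINK2 gate VEGFA stood at 3.4 against 14.2, BNIP3L at 40.1 against 95.2, and DDIT4 at 14.6 against 6.31. Within this list the SPINK2 and globin gates had few genes past 1.5-fold and the ELANE, C1Q and PF4/PPBP cells more. All genes showed the same divide, so it is not particular to the list. In the ELANE gate, 9 higher and 9 lower of 32 was a larger part than among all genes. The other groups lay nearer their shares of all genes.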

How the data were processed

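The authors deposited 1 table of raw counts (UMIs per gene and barcode) with hashtag antibody counts, made with Cell Ranger 6.0.1 on hg19 from a pooled 10x 3' library of 4 hashtagged conditions, per the labels and the study's methods. The hashtag call of each barcode was taken from the authors' deposited calls, and cells were kept at the limits the report gives. Calculations used Python 3.11.15, numpy 2.4.6, scipy 1.17.1, pandas 2.3.3 and scanpy 1.11.5. UMIs were summed per gate and hashtag and divided by the summed UMIs of all genes. CPM intervals are exact Poisson, shares exact Clopper-Pearson, differences of shares Newcombe and ratios exact conditional binomial, all at 95%. They cover counting error only, since PCR and wells add spread not seen here. No test between conditions was made, because each hashtag is 1 sample of 1 library. The ratio and interval scripts were tested on simulated data.

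The 10 genes, gates, marker lists and the wider list of 76 genes were chosen with earlier results of these data known. Named from the wider list were up to 4 genes per gate with the largest change past 1.5-fold, and as most like each gene the 3 of highest correlation, apart from a few genes that are not reported here. Doublets were removed by hashtag, and Scrublet (expected rate 6%) served as an alternative: it marked 99 of the single-hashtag cells. Alternatives tried were other thresholds, folds, limits, scalings, thinning, leaving out cells near the hashtag minimum (884), stromal cells (91) or 1 hashtag. Within-bin and PF4/PPBP alternatives of the globin gate and an equal mix of gates without ELANE were added after seeing the data. The pattern of B0252 and B0253 above B0254 and B0255 in the globin gate was also not among the planned comparisons. Ambient RNA was not subtracted. Reads shared between near-identical genes could be lost or split in the authors' counting.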

Additional observations from a re-analysis of the deposited data

Results flagged for a closer look

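The 10 genes were also summed in barcodes that no comparison used, and a signal was present in each of these groups. They took 0.773% of UMIs in the 1009 barcodes with no hashtag, 0.835% in the 1339 with more than 1 hashtag, and 0.774% in the 938 with 1 hashtag that were past a limit on UMIs, genes or mitochondrial share, against 0.830% in the cells kept. HK2 held 20.8, 21.5 and 21.7% of hexokinase UMIs in these groups, against 22.3% in the cells kept. SLC2A3 held 49.9, 53.1 and 56.7% of transporter UMIs, against 54.6%. The levels in excluded barcodes thus lay close to those kept, and no difference between them was tested.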

How the results depend on the processing

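The library holds 1 sample per hashtag and no replicate, so hashtags could not be paired with each other. Gates can be compared within a hashtag, and several results give this, but no paired test was made. Of the values that answer a comparison, 189 alternatives stayed near the reported value and 28 moved. For the single-gene ratios that were past 1.5-fold and the percents of all genes past the fold, counted together, 228 stayed, 44 moved and 2 reversed. The count of genes past 1.5-fold in the SPINK2 gate went from 1 to 0 with no limit on UMIs or genes, without Scrublet doublets, without stromal cells, without hashtag B0252 or B0253, and at a fold of 2, as the HK1 ratio of 0.666 lies on the threshold. At a fold of 2 the count went from 4 to 2 in the C1Q gate, 1 to 0 in the ELANE gate, 3 to 1 in the globin gate and 4 to 2 in the 6 cells of the PF4/PPBP gate alone, the last also to 2 with no limit on UMIs or genes. In the ELANE gate it went to 2 at a mitochondrial limit of 10%, without cells near the hashtag minimum, after thinning and without hashtag B0253 or B0254. The count between hashtags went from 1 to 2 with gates mixed equally, the added gene being HK2, through 2 UMIs in 3 ELANE cells of B0255, and was 1 when the ELANE gate was left out of the mix (chosen after seeing the data).

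The mitochondrial limit of 10% left 736 cells, with 34 in the CD34/GATA2 gate and 18 in the globin gate, and moved most shares: for SLC2A3 the difference from the CD34/GATA2 gate went from 26.8 to 6.66 percentage points in the globin gate, from 25.8 to 32.0 in the C1Q gate and from -8.70 to -17.0 in the SPINK2 gate, and for HK2 from 2.32 to -10.02 in the C1Q gate, from -13.6 to -19.1 in the globin gate and from -14.1 to -23.9 in the PF4/PPBP gate. Thinning moved SLC2A3 in the globin gate to 20.2, HK2 in the ELANE gate from -0.330 to -13.9 and HK2 in the PF4/PPBP gate to -23.4. Without hashtag B0253 the PF4/PPBP gate moved to -22.5 for HK2 and from 43.0 to 51.3 for SLC2A3. These PF4/PPBP values are those of the 6 cells past that threshold alone. The differences and ratios of the 80 PF4/PPBP cells were not put through these alternatives. Only single-gene ratios past 1.5-fold were scored over the alternatives, and of these a ratio reversed only in those 6 cells. HK1 went from 1.95 to 0.713 without hashtag B0253, and HK2 from 0.556 to 1.28 with no limits. Ratios nearer 1 were not scored here, and some turned when taken relative to the median gene, as given above. With thresholds doubled the PF4/PPBP gate held no cell and gave no value. The cause of these moves was not tested, beyond the fewer cells that the stricter limits leave. The SLC2A3 split of the globin gate by hashtag (lower of B0252 and B0253 over higher of B0254 and B0255) was 1.99 and ranged from 1.60 to 2.40 over its alternatives.

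With 1 library, differences between wells, coatings or days could not be separated from hashtags. HK2 and the transporters rest on few UMIs per cell, so small differences in the ELANE gate (84 cells) were not detectable at this depth.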
